A study of Arabidopsis thaliana with 16 samples.

Results

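The comparison described here sets seeds of the mutant dog1-3 against seeds of WT (Col-0), both imbibed in NaCl, and takes 8 of the 16 libraries of a 3'RNA-seq series, chosen by genotype and medium alone. dog1-3 is a single T-DNA insertion line (SALK_000867) in DELAY OF GERMINATION 1 (DOG1), which the study treats as a knockout, and no other allele was sequenced. Seeds of both genotypes were imbibed soon after harvest for 72 h at 4°C on 1/2 MS agar with 100 mM NaCl, and 4 biological replicates of dog1-3 stood against 4 of WT. The other 8 libraries, 4 of dog1-3 and 4 of WT from the same medium without NaCl (mock), entered the model fit and gave the genotype effect in separate seeds.

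DOG1 is a seed protein that sets the depth of dormancy, the state in which a viable seed does not germinate. It binds clade A protein phosphatases 2C, which block signalling by abscisic acid (ABA), the hormone that maintains dormancy and drives the late maturation programme of storage proteins, oil bodies and desiccation protectants. Gibberellin acts against ABA and promotes germination, in part through enzymes and expansins that loosen cell walls.

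Reverse transcription was primed with barcoded oligo(dT), and the reactions of both genotypes in NaCl went into a single pool apart from the mock pool. Total counts ranged from 1416354 to 2416698 in the dog1-3 NaCl libraries and from 1725172 to 2086789 in the WT NaCl libraries. The 20 loci with the highest counts took 23.9% to 26.3% of a dog1-3 NaCl library and 19.4% to 22.6% of a WT NaCl library, and chloroplast and mitochondrial loci 0.528% to 0.64% and 0.574% to 0.882%. Levels below are CPM, counts scaled to a common library total, after scaling by TMM, edgeR's correction for such differences in composition, with factors of 0.859 to 0.906 for dog1-3 NaCl and 0.994 to 1.05 for WT NaCl. Seed storage genes, which mark seed tissue, were abundant in all 8 libraries. Summed over the 8 genes for 12S globulins and vicilins, the main storage proteins of the seed, dog1-3 NaCl libraries held 60620 to 80376 CPM and WT NaCl libraries 33379 to 49825 CPM. Of 12 markers of green tissue only RBCS1A, a small subunit of Rubisco, passed the filter on low counts, and of 5 pollen markers none did. Of 7 seed coat markers 1 passed and of 5 endosperm markers 2 passed, 0 of these 3 called, with edgeR at an unadjusted p under 0.05 for 1 and with DESeq2 calls for 0. That 1 was the endosperm marker EPR1, with an adjusted p of 0.0147 in edgeR and a log2FC of 0.37, inside the 1.5-fold limit. In mock EPR1 was called higher (log2FC 0.78, adjusted p = 1.11e-06, edgeR). RBCS1A had 812 to 999 CPM in dog1-3 NaCl and 552 to 631 CPM in WT NaCl, and its log2FC of 0.58 lay just inside the 1.5-fold limit. The part of these other tissues in the results was not tested. In whole seeds, fewer cells of a type and less RNA per cell cannot be told apart.

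DOG1 (AT5G45830, chromosome 5, 18589418 to 18591506, minus strand, RefSeq TAIR10.1) was read first, since it checks the labels. It had 38, 35, 31 and 22 counts in the dog1-3 NaCl libraries, against 332, 263, 298 and 250 in the WT NaCl libraries. That is 18.9 ± 3.04 CPM in dog1-3 and 145 ± 23.9 CPM in WT (SD, n = 4 each), so that reads at the locus were at 13.1% of the WT level. Every dog1-3 library lay far below every WT library (log2FC -2.94, SE 0.16, adjusted p = 1.26e-17 in edgeR's quasi-likelihood test; exact permutation p = 0.029, two-sided, the smallest possible with 4 against 4). Which part of the gene the remaining reads came from is not given by counts per locus. In mock seeds DOG1 had 15.6 ± 2.304 CPM in dog1-3 and 80.5 ± 16.4 CPM in WT (SD, n = 4 each).

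Of the annotated loci, 12697 had enough counts to test, and 1993 of them (15.7%) were differentially expressed genes (DEGs), meaning an FDR below 0.05 together with a difference beyond 1.5-fold. In dog1-3, 1036 genes rose (8.16% of those tested) and 957 fell (7.54%), and the median log2FC over all tested genes was -0.02. The 4 dog1-3 libraries lay entirely above the 4 WT libraries for 920 of the genes that rose, and entirely below them for 780 of those that fell. Over all tested genes such separation occurred for 3420 (26.9%), 1781 higher (14%) and 1639 lower (12.9%). The changes were mostly moderate, with 375 increases and 402 decreases over 2-fold, and 19 and 64 over 4-fold. The genes that rose together made 369800 CPM in dog1-3 and 182900 CPM in WT, against 27790 CPM in dog1-3 and 51150 CPM in WT for the genes that fell. The balance of directions depended on the scaling. With library size alone the median of all genes moved to -0.25 and 551 rose while 2252 fell, so that 19.7% of DEGs were higher in dog1-3 instead of 52%. DEGs took 14.9% to 17% of the tested genes on each of the 5 nuclear chromosomes and 2.94% of the 68 organellar ones.

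**Figure D1:**
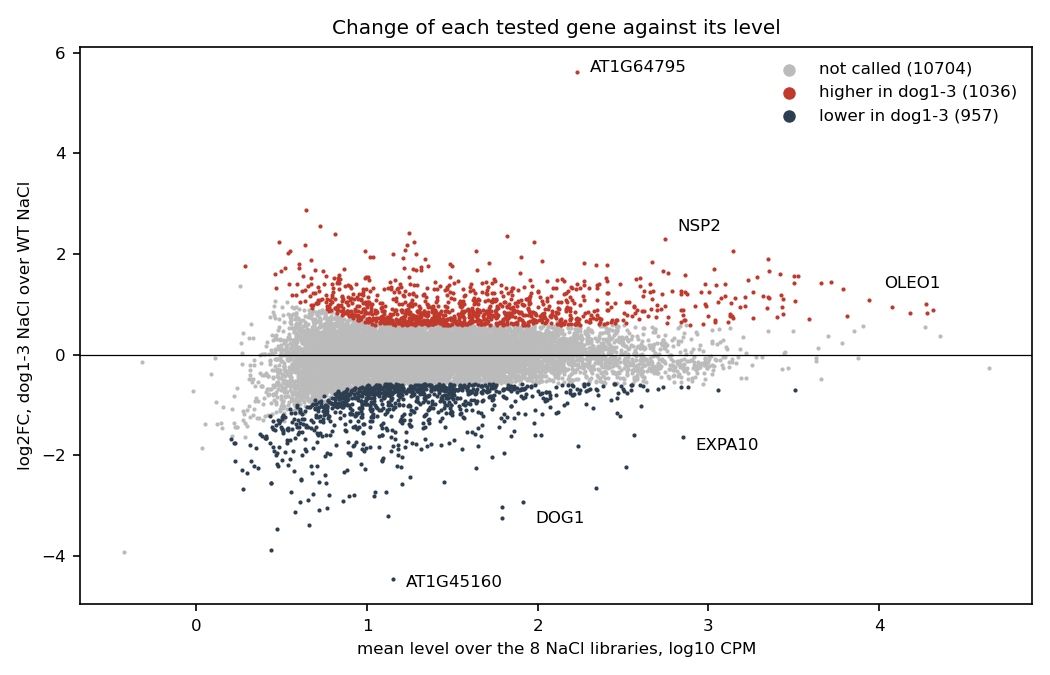
Each of 12697 tested genes by its mean level over the 8 NaCl libraries (x axis, log10 CPM) and its log2FC, dog1-3 NaCl over WT NaCl (y axis). Red points are the 1036 genes that rose in dog1-3 and dark points the 957 that fell, with increases reaching the most abundant transcripts and the steepest decreases among genes of low to middle level.

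The largest single increase was at AT1G64795, an uncharacterized protein-coding locus (chromosome 1, 24082579 to 24082848, plus strand). It had 808, 497, 537 and 420 counts in the dog1-3 NaCl libraries, against 11, 22, 14 and 7 in the WT NaCl libraries, a log2FC of 5.61 (SE 0.17, adjusted p = 2.5e-25 in edgeR's quasi-likelihood test). No other DEG came near it, and it was also higher in mock (log2FC 4.23). The locus lies antisense within ILITYHIA (ILA, AT1G64790, minus strand), a large protein of translational control, and the strand setting of the counting is not given in the sources used here. ILA itself had 65.7 ± 9.01 CPM in dog1-3 and 69.0 ± 12.8 CPM in WT (SD, n = 4 each; log2FC -0.07, adjusted p = 0.708, edgeR), a gene looked up after the values of its neighbour were seen.

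NSP2, a nitrile specifier protein that diverts glucosinolate breakdown in seeds, was the most abundant of the 10 largest increases. It had 876, 1061, 976 and 804 CPM in the dog1-3 NaCl libraries, against 222, 170, 189 and 177 CPM in the WT NaCl libraries (log2FC 2.296, SE 0.10, adjusted p = 6.39e-20, edgeR). GolS2, a galactinol synthase that starts the raffinose family of protective sugars, had 116, 117, 102 and 104 CPM in dog1-3 NaCl and 25.3, 15.5, 23.9 and 22.0 CPM in WT NaCl (log2FC 2.35, SE 0.14). For both genes the groups were far apart and the libraries within a group close together, but separated groups were a condition for all 10. AT3G21380, a mannose-binding lectin, had 156 ± 26.0 CPM in dog1-3 and 33.3 ± 3.44 CPM in WT (SD, n = 4 each). ChiC, a chitinase, had 31.2 ± 7.60 and 6.53 ± 3.00 CPM, and EXLA1, an expansin-like protein, 29.6 ± 7.96 and 5.58 ± 0.91 CPM, with dog1-3 given first. The remaining 4 were less abundant, at 7.04 to 10.9 CPM in dog1-3 and 1.01 to 2.02 CPM in WT: the cytochrome P450 gene CYP709B2 (log2FC 2.88), the kinase gene AP4.3A (2.55), SEP2, a stress-enhanced protein of the light-harvesting family (2.39), and AT2G25770, a polyketide cyclase-like gene (2.17). Part of the 3′ end of AP4.3A occurs elsewhere in the genome, and its count may include other loci.

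Among the 10 largest decreases, AT1G45160, a protein kinase gene, had 5, 0, 2 and 1 counts in the dog1-3 NaCl libraries, against 55, 55, 49 and 58 in the WT NaCl libraries (log2FC -4.46, SE 0.31, adjusted p = 1.31e-14, edgeR). The groups did not come close to each other, and separated groups were a condition for all 10. A pair of cell wall genes was among the 10. XTH19, a xyloglucan endotransglucosylase/hydrolase, had 14.1, 15.4, 5.53 and 12.5 CPM in dog1-3 NaCl and 114, 141, 82.0 and 111 CPM in WT NaCl (log2FC -3.25, SE 0.24). EXPA8, an alpha-expansin, had 11.7, 18.8, 8.86 and 16.5 CPM in dog1-3 NaCl and 103, 124, 97.9 and 114 CPM in WT NaCl (log2FC -3.03, SE 0.18). RTFL10, a small ROTUNDIFOLIA-like peptide of organ growth, had 2.41 ± 0.77 CPM in dog1-3 and 24.0 ± 4.54 CPM in WT (SD, n = 4 each). The RING/U-box gene AT5G43420 was counted 3 times in the 4 dog1-3 NaCl libraries together and 44 times in the 4 WT NaCl libraries, 8.09% of the WT level with a 95% counting interval of 1.61% to 25.2%. The other 4 protein-coding ones were AT4G03292, a ribonuclease H-like gene (log2FC -3.38), ARAB-1, a GDSL lipase (-3.13), the F-box gene AT2G32560 (-3.10) and AT3G50200 of unknown function (-3.06). All 4 were low, at 0.74 to 1.22 CPM in dog1-3 and 6.85 to 10.5 CPM in WT. The last of the 10, AT1G32385, is a small nucleolar RNA and is described with its class.

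**Figure D2:**
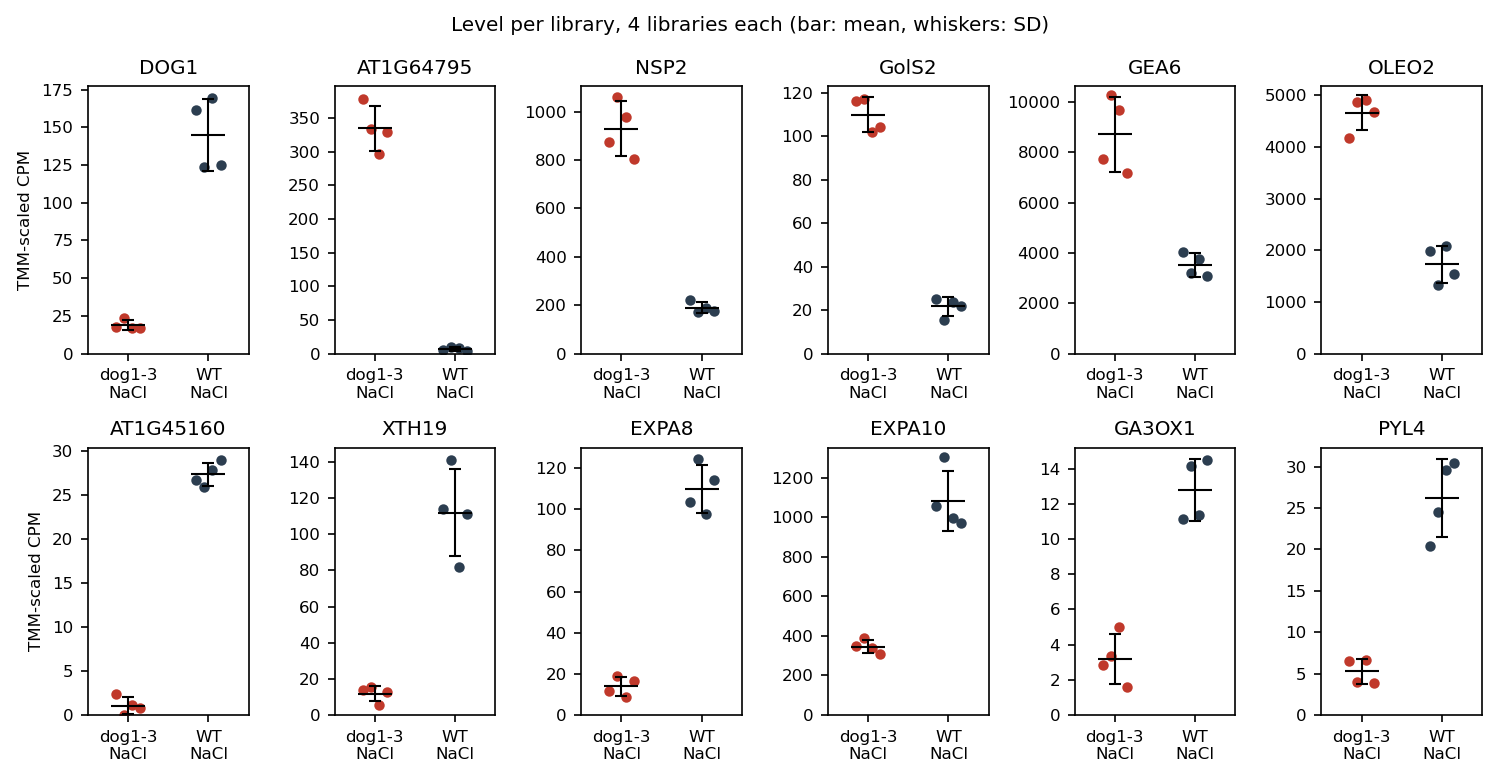
Level of 12 genes in each library (points, TMM-scaled CPM) of dog1-3 NaCl (left) and WT NaCl (right), with the mean (bar) and SD (whiskers) of 4 libraries. The groups do not overlap in any panel, with DOG1 at 17.2 to 23.5 CPM in dog1-3 and 124 to 170 CPM in WT.

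Most genes of the late maturation programme of the seed rose in dog1-3. The lists below were put together from textbook knowledge with earlier results of these data known, and a list's counts are to be read against the 8.16% of all tested genes that rose and the 7.54% that fell. Of the 8 storage globulin genes 6 rose and 0 fell, with a median log2FC of 0.95. Of 5 genes for 2S albumins, the small storage proteins, 4 rose and 0 fell (median 0.95), 3 of them also in DESeq2. For globulins and albumins 0 genes had an unadjusted p under 0.05 for a decrease in edgeR, and 0 fell in DESeq2. Cruciferin CRA1 had 26529, 30321, 28688 and 22169 CPM in dog1-3 NaCl, against 18078, 13975, 14495 and 11497 CPM in WT NaCl (log2FC 0.89, SE 0.13, adjusted p = 1.27e-06, edgeR). CRU3, another cruciferin, had 24378 ± 3855 CPM in dog1-3 and 13769 ± 2327 CPM in WT (SD, n = 4 each). The vicilin-like PAP85 had 11846 ± 776 CPM in dog1-3 and 5617 ± 758 CPM in WT (log2FC 1.08). Within the albumins, SESA2 rose most, with 2107, 2705, 2740 and 1445 CPM in dog1-3 NaCl and 735, 589, 531 and 313 CPM in WT NaCl (log2FC 2.05, SE 0.20), while SESA3 rose with a log2FC of 0.95. SESA4 (log2FC 1.12) was the one of these 4 that DESeq2 did not call (adjusted p = 0.0702). With the 20 most abundant loci left out, 3 globulin genes were still called, because other members were among the loci removed.

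Oil body proteins coat the lipid droplets that feed the seedling. All 8 tested members of 9 rose (median log2FC 1.09), and 0 had an unadjusted p under 0.05 for a decrease in edgeR or fell in DESeq2. OLEO2 had 4177, 4868, 4912 and 4672 CPM in dog1-3 NaCl and 1983, 1328, 2073 and 1531 CPM in WT NaCl (log2FC 1.43, SE 0.11, adjusted p = 3.17e-13, edgeR). OLEO1 had 25187 ± 1850 CPM in dog1-3 and 12617 ± 2130 CPM in WT (log2FC 1.00), and the caleosin ATS1 had 2883 ± 372 and 1282 ± 244 CPM (SD, n = 4 each), dog1-3 first. Genes of oil use were read beside them. Of 11 genes of oil breakdown and β-oxidation 0 were called in edgeR or DESeq2, with 1 higher and 3 lower at an unadjusted p under 0.05 and a median of -0.15. Of 8 genes of the glyoxylate cycle and gluconeogenesis 0 were called in either tool, also with 1 higher and 3 lower at an unadjusted p under 0.05 (median -0.04). Isocitrate lyase, ICL, had 7323 ± 306 CPM in dog1-3 and 7671 ± 764 CPM in WT. Among 9 genes of oil synthesis 1 rose, the desaturase SSI2, with 85.5 ± 8.66 CPM in dog1-3 and 41.4 ± 5.68 CPM in WT (SD, n = 4 each; log2FC 1.05).

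LEA proteins and dehydrins protect membranes and proteins in the dry state. Of 23 tested members of 25, 21 rose and 0 fell (median log2FC 1.15), with 0 lower at an unadjusted p under 0.05 in edgeR and 0 lower in DESeq2. Summed over the list, dog1-3 NaCl libraries held 62608, 71625, 72019 and 61357 CPM, against 38739, 30245, 36295 and 27733 CPM in WT NaCl libraries, so the lowest mutant library lay above the highest WT one. AT2G42560, a LEA domain gene, had 980, 916, 880 and 732 CPM in dog1-3 NaCl and 306, 218, 309 and 305 CPM in WT NaCl (log2FC 1.63, SE 0.15, adjusted p = 1.51e-11, edgeR). GEA6, the Em protein also called LEA6, had 7732, 10285, 9691 and 7199 CPM in dog1-3 NaCl and 4048, 3207, 3773 and 3070 CPM in WT NaCl (log2FC 1.31, SE 0.12). AT3G17520, LEA7 and LEA14 rose with log2FC of 1.57, 1.54 and 1.46, and the dehydrin RAB18, among the most abundant, with 0.82.

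Other protectants moved with them in part. PER1, a peroxiredoxin of dormant seeds, had 3812, 4278, 4215 and 3524 CPM in dog1-3 NaCl and 1612, 1166, 1456 and 1012 CPM in WT NaCl (log2FC 1.59, SE 0.12, adjusted p = 1.18e-13, edgeR). Among 13 antioxidant genes 2 rose, PER1 and the ferritin FER1, and ascorbate peroxidase APX1 fell (14.9 ± 3.84 CPM in dog1-3, 31.5 ± 3.20 CPM in WT, SD, n = 4 each). In raffinose family synthesis GolS2, GolS1 and the stachyose synthase STS rose with log2FC of 2.35, 1.03 and 0.92, and SIP2, an enzyme that breaks raffinose down, fell by 0.73 on the log2 scale. Of 4 seed heat shock genes that passed the filter of 13 listed, HSFA9, HSP101 and HSP17.6A rose and 0 fell, with 1 lower at an unadjusted p under 0.05 in edgeR and 0 in DESeq2. HSFA9, the heat shock factor of seed maturation, had 42.1 ± 6.91 CPM in dog1-3 and 16.9 ± 6.72 CPM in WT, but parts of its 3′ end occur elsewhere in the genome. HSP17.6A lost its call without WT library 2 (log2FC 0.48) or dog1-3 library 3 or 4, and FER1 without WT library 2 or 3 or dog1-3 library 2. The summed level of the heat shock list was 1476 ± 186 CPM in dog1-3 and 1607 ± 139 CPM in WT (SD, n = 4 each), a lower sum beside a median log2FC of 0.92.

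**Figure D3:**
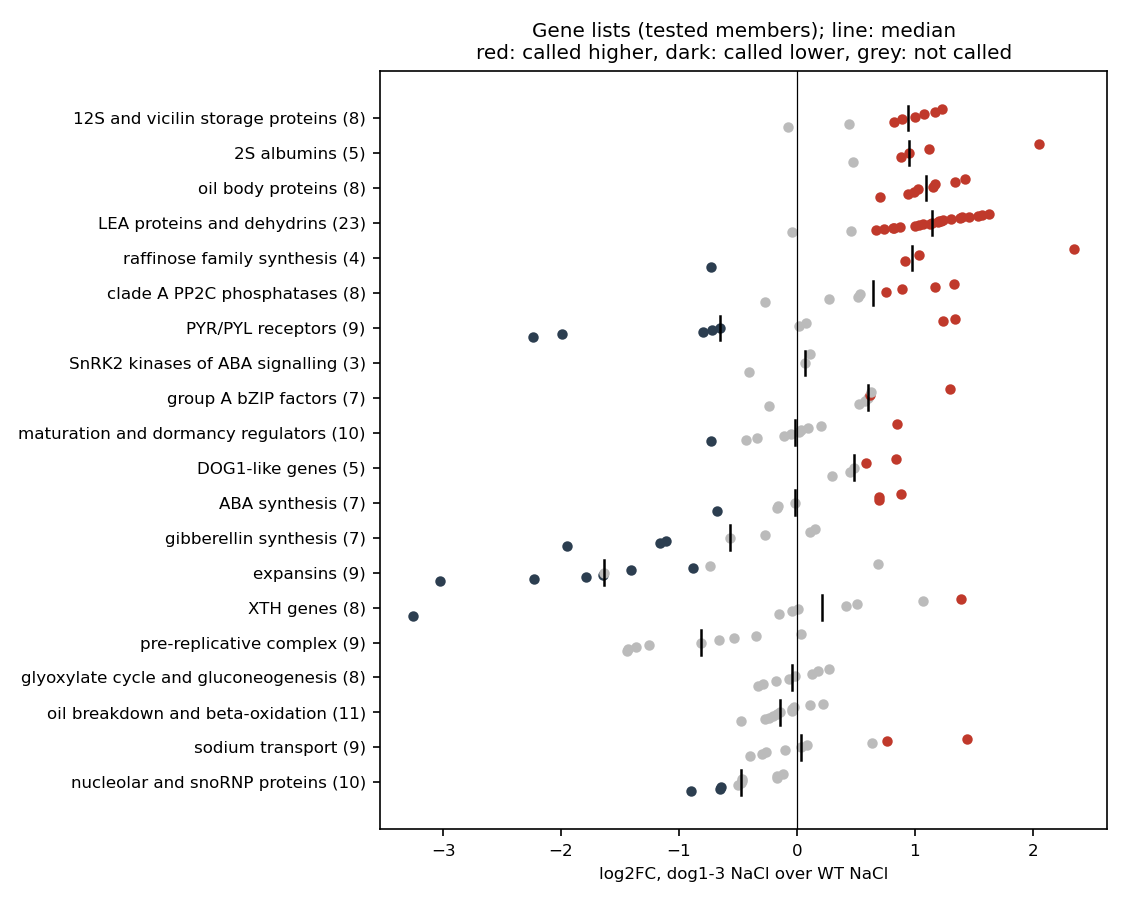
Log2FC, dog1-3 NaCl over WT NaCl (x axis), of each tested member of 20 gene lists (number of tested members in brackets), with called increases in red, called decreases in dark blue, uncalled genes in grey and the list median as a line. Seed storage, oil body and LEA genes lie to the right, expansins and gibberellin synthesis to the left, and the lists for oil breakdown and the glyoxylate cycle around 0.

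ABA acts through receptors of the PYR/PYL family, which when bound to hormone inhibit clade A PP2Cs and so release SnRK2 kinases that phosphorylate group A bZIP factors. Calls were read layer by layer. Of 9 tested receptor genes 2 rose and 5 fell (median log2FC -0.65). PYL4 had 6.57, 4.02, 6.64 and 3.92 CPM in dog1-3 NaCl and 20.4, 24.5, 29.6 and 30.5 CPM in WT NaCl (log2FC -2.24, SE 0.25, adjusted p = 1.97e-09, edgeR). PYL6 had 3.23 ± 2.15 CPM in dog1-3 and 12.6 ± 5.37 CPM in WT (log2FC -1.99). PYL13 went the other way with 54.9, 36.2, 35.4 and 40.8 CPM in dog1-3 NaCl and 15.1, 15.5, 21.1 and 16 CPM in WT NaCl (log2FC 1.34), and PYL7 rose likewise (log2FC 1.24). Among these 4 layers the receptor family was the one with DEGs in both directions.

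Of 8 PP2C genes of clade A 4 rose and 0 fell in edgeR and DESeq2, with 1 lower at an unadjusted p under 0.05 (median 0.65). AHG1, the phosphatase that DOG1 binds in seeds, had 52.5, 50.3, 56.5 and 43.9 CPM in dog1-3 NaCl and 24.3, 16.01, 25.05 and 26.0 CPM in WT NaCl (log2FC 1.17, SE 0.14, adjusted p = 1.82e-08, edgeR). ABI2 (log2FC 1.34), HAI3 (0.89) and HAB1 (0.76) were the other 3, HAB1 without a call when scaled by library size alone. RDO5, a PP2C-like dormancy gene outside the clade (AT4G11040), had 2799 ± 152 CPM in dog1-3 and 2739 ± 136 CPM in WT (SD, n = 4 each; log2FC 0.03). The 3 SnRK2 kinase genes gave 0 calls in edgeR or DESeq2 (1 lower at an unadjusted p under 0.05), and SNRK2.2 had 151 ± 11.9 CPM in dog1-3 and 139 ± 6.70 CPM in WT. Of 7 bZIP genes EEL and ABF4 rose (log2FC 1.297 and 0.62) and 0 fell or passed an unadjusted p under 0.05 for a decrease. The call for ABF4 was lost in DESeq2 and without WT library 4 or dog1-3 library 2.

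Upstream of the pathway, ABA synthesis was mixed. ABA1, the zeaxanthin epoxidase, had 51.6, 60.3, 65.9 and 55.7 CPM in dog1-3 NaCl and 39.3, 29.2, 32.5 and 25.5 CPM in WT NaCl (log2FC 0.88, SE 0.13, adjusted p = 1.09e-06, edgeR). NCED9 and NCED6, dioxygenases of the rate-limiting step in seeds, rose with log2FC of 0.70 and 0.69, while ABA4 fell by 0.67 on the log2 scale. The NCED9 groups overlapped, since the third dog1-3 library had 14.9 CPM and WT reached 18.5 CPM. NCED6 lost its call without the third WT or the first dog1-3 library. CYP707A2, the hydroxylase that breaks ABA down in imbibed seeds, had 18.4 ± 4.01 CPM in dog1-3 and 31.1 ± 7.01 CPM in WT (SD, n = 4 each; log2FC -0.79, adjusted p = 0.0014, edgeR). It was the 1 tested of 4 listed hydroxylase genes.

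Of 10 tested regulators of maturation and dormancy 1 rose and 1 fell (median -0.02), shares near those of all tested genes. The one that rose was E12A11 (AT1G18100, MOTHER OF FT AND TFL1), a PEBP protein that acts in ABA and gibberellin control of germination, with 236, 198, 201 and 212 CPM in dog1-3 NaCl and 131, 109, 130 and 103 CPM in WT NaCl (log2FC 0.85, SE 0.10). The one that fell was ABI4, an AP2 factor of ABA signalling, with 30.3 ± 2.51 CPM in dog1-3 and 49.5 ± 4.56 CPM in WT (SD, n = 4 each; log2FC -0.72). ABI3, the B3 factor that turns on storage and LEA genes, had 499, 476, 494 and 590 CPM in dog1-3 NaCl and 526, 478, 538 and 492 CPM in WT NaCl (log2FC 0.01, SE 0.08), and the groups overlapped. Among 5 DOG1-like genes AT3G14880 and AT4G18650 rose (log2FC 0.84 and 0.59) and 0 fell in edgeR or DESeq2 or had an unadjusted p under 0.05 for a decrease. The call for AT4G18650 stood at the edge of the 1.5-fold limit and was lost without the first or second WT library or the second dog1-3 library.

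Genes of gibberellin synthesis were called in the lower direction. Of 7 tested synthesis genes 3 fell and 0 rose in edgeR or DESeq2 (0 higher at an unadjusted p under 0.05), with a median of -0.57. GA3OX1, the last step to active gibberellin, had 2.81, 3.35, 4.98 and 1.57 CPM in dog1-3 NaCl and 11.2, 14.1, 11.4 and 14.5 CPM in WT NaCl (log2FC -1.95, SE 0.30, adjusted p = 2.06e-06, edgeR). GA20OX2, of the step before, had 192, 154, 147 and 231 CPM in dog1-3 NaCl and 362, 363, 461 and 421 CPM in WT NaCl (log2FC -1.16), and GA20OX1 fell similarly (-1.11). GA2OX2, the 1 tested of 7 listed genes that inactivate gibberellin, rose (47.2 ± 4.48 CPM in dog1-3, 24.2 ± 7.61 CPM in WT, SD, n = 4 each; log2FC 0.99). Among 6 receptor and DELLA genes the receptor GID1C rose (log2FC 0.61) and 0 fell in edgeR, with 2 lower at an unadjusted p under 0.05, and DESeq2 gave 0 calls for this list. The GID1C call was also lost without either of WT libraries 1 and 2 or any of dog1-3 libraries 2, 3 and 4.

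Expansins loosen cell walls as the embryo elongates, and most of those tested fell. Of 9 tested genes of 18, 6 fell and 0 rose in edgeR and DESeq2 (1 higher at an unadjusted p under 0.05), with a median of -1.64. The list leaves out the expansin-like EXLA1, which rose (log2FC 2.42). In this list 1 gene was called higher when WT library 1 or dog1-3 library 1 or 2 was left out, with the NaCl libraries alone and without the filter on low counts. Summed over the list, dog1-3 NaCl libraries held 566, 608, 527 and 544 CPM, against 1889, 2230, 1665 and 1846 CPM in WT NaCl libraries. EXPA10 had 348, 387, 341 and 308 CPM in dog1-3 NaCl and 1057, 1302, 993 and 969 CPM in WT NaCl (log2FC -1.64, SE 0.10, adjusted p = 1.68e-16, edgeR). EXPA1 had 117 ± 12.03 CPM in dog1-3 and 545 ± 85.8 CPM in WT (log2FC -2.23), and EXPA9 had 12.6 ± 5.51 and 41.3 ± 9.10 CPM, dog1-3 first (log2FC -1.79). Of 8 XTH genes, whose enzymes cut and rejoin xyloglucan, 1 rose and 1 fell. XTH19 fell, as above, whereas XTH25 had 575, 741, 773 and 540 CPM in dog1-3 NaCl and 292, 256, 258 and 193 CPM in WT NaCl (log2FC 1.40, SE 0.13). In the annotation class of xyloglucan endotransglucosylase and expansin genes, picked after values were seen, 3 of 17 tested rose and 7 fell (median -0.73). The EXORDIUM family, linked to brassinosteroid growth responses, was split as well, with EXL2 at 1733 ± 53.7 CPM in dog1-3 and 774 ± 88.6 CPM in WT (log2FC 1.16) and EXL3 at 29.1 ± 6.28 and 64.1 ± 9.26 CPM, dog1-3 first (log2FC -1.16).

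Of 4 genes of endosperm weakening bZIP44, a factor that controls mannanase in the seed, was called lower with 7.84 ± 1.21 CPM in dog1-3 and 12.5 ± 4.17 CPM in WT (SD, n = 4 each; log2FC -0.64, adjusted p = 0.0495, edgeR). Its groups overlapped, DESeq2 gave an adjusted p of 0.107, and the call was lost when WT library 3 or 4 or any of the dog1-3 libraries was left out. EPR1, an extensin of the endosperm, had 25836 ± 2863 CPM in dog1-3 and 20036 ± 3168 CPM in WT (log2FC 0.37, not called). Cell cycle genes gave 0 calls in edgeR or DESeq2 for the pre-replicative complex (9 tested, median -0.82), S phase enzymes (9 tested, median -0.19) and D-type cyclins (4 tested, median -0.27). At an unadjusted p under 0.05 they gave 4, 2 and 1 genes lower and 0, 1 and 0 higher. The pre-replicative genes summed to 37.1, 33.5, 32.7 and 38.4 CPM in dog1-3 NaCl and 52.5, 49.0, 50.1 and 60.5 CPM in WT NaCl, and the groups did not overlap. In this list 2 genes were called lower without WT library 1, 1 without WT library 4 and 4 with scaling by library size alone. Among 11 tubulin genes TUB5 and TUA6 fell (log2FC -2.80 and -0.84), and TUA2 was called higher (0.64) with overlapping groups, a call lost in DESeq2 and without any of WT libraries 1, 2 and 4 or dog1-3 libraries 1 and 4.

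Genes linked to salt and water were read next. Of 9 sodium transport and salt response genes 2 rose and 0 fell in edgeR or DESeq2 or at an unadjusted p under 0.05. The antiporter NHX3 had 76.9, 82.5, 79.1 and 53.3 CPM in dog1-3 NaCl and 23.8, 22.6, 25.6 and 36.5 CPM in WT NaCl (log2FC 1.44, SE 0.14, adjusted p = 8.12e-11, edgeR), and SIS, a salt-induced serine-rich protein, had 451 ± 68.8 CPM in dog1-3 and 265 ± 36.1 CPM in WT (SD, n = 4 each; log2FC 0.77). NHX1, the vacuolar antiporter, had 17.1 ± 2.39 CPM in dog1-3 and 21.3 ± 5.93 CPM in WT (log2FC -0.29, adjusted p = 0.269, edgeR). Of 8 stress markers LTI65, ERD5 and LTI78 rose with log2FC of 1.52, 1.12 and 1.01, and P5CS1 of proline synthesis fell (log2FC -1.38, lost without the third dog1-3 library).

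Of 10 tested water channel genes 3 rose, among them a pair of the seed vacuole, and 2 fell. BETA-TIP had 3360, 3433, 3982 and 3084 CPM in dog1-3 NaCl and 1284, 943, 1129 and 1036 CPM in WT NaCl (log2FC 1.66, SE 0.09, adjusted p = 8.78e-17, edgeR). TIP3;1 had 5024 ± 784 CPM in dog1-3 and 1702 ± 244 CPM in WT (log2FC 1.56). PIP2;5 of the plasma membrane rose (log2FC 1.47) and PIP1A fell (log2FC -0.69). Among 11 ethylene genes the synthesis gene ACS2 rose (34.6 ± 4.30 CPM in dog1-3, 9.21 ± 2.80 CPM in WT, SD, n = 4 each; log2FC 1.90) with ERF1 (0.87, overlapping groups), and the receptor ERS1 fell (-1.01). UBC21 (PEX4, AT5G25760), the study's reference gene in RT-qPCR, had 39.9 ± 3.16 CPM in dog1-3 and 49.5 ± 7.70 CPM in WT (log2FC -0.32, adjusted p = 0.0566, edgeR).

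The most abundant genes that fell were GRP7, an RNA-binding protein of cold and circadian responses, the translation elongation factor gene AT1G07930, the NOP56-like gene AT5G27120, EXPA10 and FIB2. GRP7 had 2582, 2406, 2300 and 2572 CPM in dog1-3 NaCl and 3831, 3898, 4156 and 4103 CPM in WT NaCl (log2FC -0.70, SE 0.08, adjusted p = 4.84e-09, edgeR). FIB2 encodes fibrillarin, the methyltransferase that box C/D small nucleolar RNAs guide to ribosomal RNA, and had 515, 504, 531 and 598 CPM in dog1-3 NaCl and 802, 872, 773 and 902 CPM in WT NaCl (log2FC -0.64, SE 0.08). AT5G27120 and AT3G05060, both annotated as NOP56-like proteins of the same particle, fell by 0.65 and 0.90 on the log2 scale. All 10 tested nucleolar and snoRNP protein genes had a negative log2FC (median -0.47), of which 3 fell and 0 rose in edgeR and DESeq2, with 8 lower and 0 higher at an unadjusted p under 0.05. With scaling by library size alone 7 fell.

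Small nucleolar RNAs (snoRNAs) guide the methylation and pseudouridylation of ribosomal RNA in the nucleolus. The class was picked after its values were seen, so its counts are given as a description. Of 287 annotated snoRNA genes 75 were tested, and 35 of them fell (46.7%) while 0 rose in edgeR or DESeq2, with 2 higher and 43 lower at an unadjusted p under 0.05 and 34 lower in DESeq2. The median log2FC was -0.67, and 62 of the 75 were negative. Summed over the class, dog1-3 NaCl libraries held 1413, 1419, 1427 and 1554 CPM, against 1830, 1928, 2031 and 1893 CPM in WT NaCl libraries. Small nuclear RNAs of the spliceosome, also short and not normally polyadenylated, gave 0 calls among 17 tested in either tool, with 5 lower and 1 higher at an unadjusted p under 0.05 (median -0.41). With a minimum count of 30 instead of 10, fewer snoRNA genes were tested and 15 fell, where 723 of all 8694 tested genes fell. How many snoRNA genes were tested at that setting is not given here, so their share cannot be set beside 46.7%. The libraries were primed with oligo(dT), and whether the reads came from mature snoRNAs, precursors or degradation products was not tested.

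SnoRNA genes with box C (TGATGA) near the 5′ end and box D (CTGA) near the 3′ end, within 15 bases of each, numbered 28 among those tested, and 21 fell with a median of -1.40. Of the other 47, 14 fell with a median of -0.45. The split was smaller without the limit of 15 bases. Of 36 genes that contain TGATGA and CTGA 22 fell (median -0.98), and of 39 without them 13 fell (median -0.55). The 4 genes printed here in full, 5′ to 3′ from RefSeq TAIR10.1, have boxes C and D (in capitals) within 15 bases of the ends. They are shown because they had some of the clearest decreases. They lie on the plus strand at chr1:11685060-11685144, chr4:1122744-1122852, chr5:20796128-20796227 and chr5:20795936-20796051, in the order of the lines.
AT1G32385: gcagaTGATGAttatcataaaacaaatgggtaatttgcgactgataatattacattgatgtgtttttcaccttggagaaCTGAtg
AT4G04205: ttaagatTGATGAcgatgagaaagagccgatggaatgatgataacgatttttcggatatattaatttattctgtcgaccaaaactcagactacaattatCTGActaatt
AT5G07735: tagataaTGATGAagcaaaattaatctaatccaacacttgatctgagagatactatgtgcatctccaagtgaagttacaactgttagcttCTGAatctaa
AT5G51174 (SNOR30): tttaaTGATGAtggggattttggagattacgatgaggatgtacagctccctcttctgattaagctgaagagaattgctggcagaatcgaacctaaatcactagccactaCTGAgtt

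AT4G04205 had 3, 7, 5 and 4 counts in the dog1-3 NaCl libraries, against 41, 41, 34 and 36 in the WT NaCl libraries (log2FC -2.73, SE 0.28, adjusted p = 4.35e-10, edgeR). AT5G07735 had 39, 22, 21 and 21 counts in dog1-3 NaCl and 114, 131, 97 and 109 in WT NaCl (log2FC -1.88, SE 0.15). Both genes separated the groups with a wide gap. AT1G32385 was counted 2 times in the dog1-3 NaCl libraries together and 41 times in the WT NaCl libraries, 5.78% of the WT level with a 95% counting interval of 0.678% to 22.3%. SNOR30 had 24, 3, 20 and 10 counts in dog1-3 NaCl and 55, 70, 46 and 59 in WT NaCl. Neighbours fell together in places. Of 37 tested snoRNA genes in 14 clusters, with members less than 1000 bases apart on a strand, 23 fell, and in 5 clusters every tested member fell, among them the 3 genes around AT1G32385 and the 3 around AT5G07735 and SNOR30. Of 38 single genes 12 fell, and of 13 that lie inside another gene on its strand 2 fell.

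**Figure D4:**
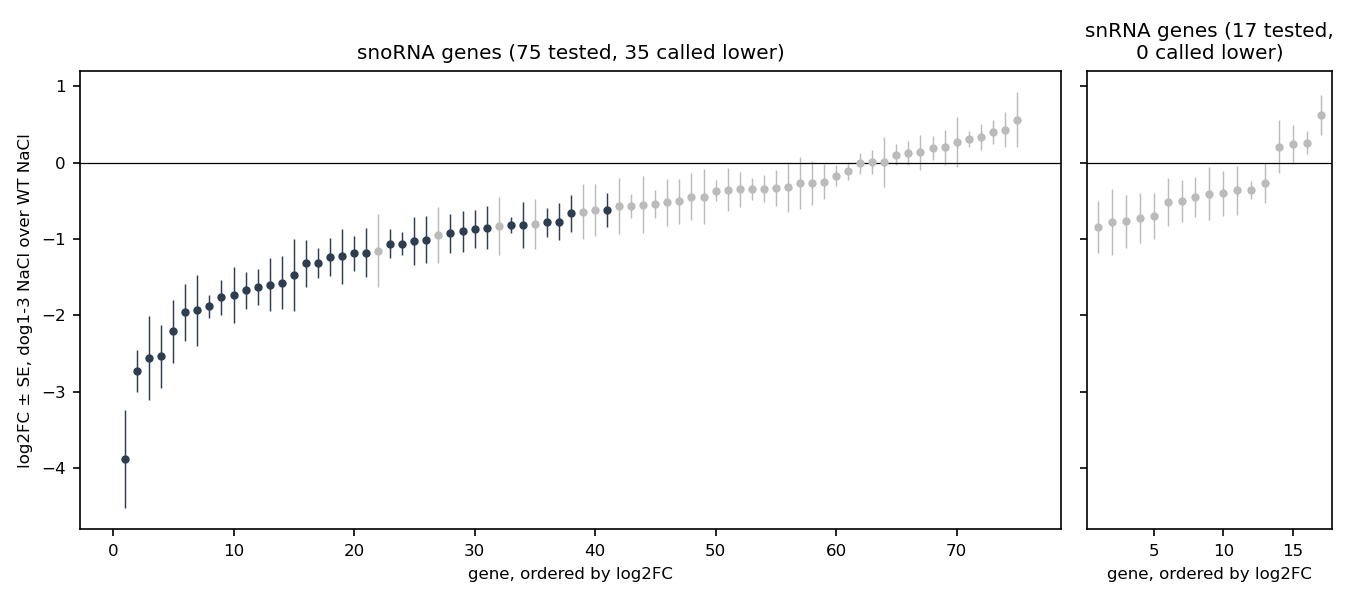
Log2FC ± SE, dog1-3 NaCl over WT NaCl (y axis), of 75 tested snoRNA genes (left) and 17 tested snRNA genes (right), each ordered by log2FC (x axis). Dark points are the 35 snoRNA genes called lower. No gene of either class was called higher, and no snRNA gene was called lower.

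Promoters were read for short sequence motifs in the 300 bases before the annotated start, on both strands, for 1008 protein-coding genes that rose, 899 that fell and 12356 tested. ACGTG is the core of the ABA response element bound by group A bZIP factors, CACGTG the G-box that contains it, and CATGCA the RY core bound by B3 factors such as ABI3. ACGTG was present in 44.5% of promoters of genes that rose, 23.1% of those that fell and 26.3% of all. CACGTG, which overlaps ACGTG, was present in 21.8%, 7.12% and 9.15%, and CATGCA in 15.1%, 9.79% and 8.36%, in that order. With 500 bases, a window chosen after seeing the data, CATGCA was in 22.5%, 18.1% and 14.6% and ACGTG in 52.5%, 33% and 35.4%. GGCCCA, common in genes of growing cells, was in 16.9%, 17.8% and 21.3%, and AAACCCTA, the telo box of ribosomal protein genes, in 3.08%, 5.45% and 4.79%. Both E2F motifs, TTTCCCGC and TTTGGCGC, were each in under 1% of every group. The share of genes that rose climbed with the number of ACGTG matches, at 6.14% with 0, 9.01% with 1, 14.7% with 2, 23.8% with 3 and 30.7% with 4 or more. Matches were counted on both strands, so a single palindromic G-box counts as 2. The series therefore mixes presence of a G-box with the number of separate sites, and these were not separated. All 23 LEA promoters held ACGTG, all 8 oil body promoters held CATGCA, and all 5 albumin promoters held both. Other lists with several increases held fewer, with ACGTG in 4 of 8 globulin, 1 of 10 aquaporin and 1 of 4 heat shock promoters and CATGCA in 8 of 23 LEA promoters. ACGTG was also in 7 of 11 tubulin and 7 of 13 antioxidant promoters, lists with few increases. A match is a string of letters and not a measured binding site. The 5 promoters printed are those of genes described above, 3 that rose (GEA6, PER1 and GolS2) and 2 that fell (EXPA8 and XTH19). Each is from RefSeq TAIR10.1, 5′ to 3′ on the gene's own strand, with ACGTG and CATGCA on either strand in capitals together with the joined letters of a G-box. They lie at chr2:16780369-16780668 (minus strand), chr1:17780129-17780428 (plus), chr1:21207237-21207536 (plus), chr2:16950706-16951005 (minus) and chr4:14830225-14830524 (minus).
GEA6: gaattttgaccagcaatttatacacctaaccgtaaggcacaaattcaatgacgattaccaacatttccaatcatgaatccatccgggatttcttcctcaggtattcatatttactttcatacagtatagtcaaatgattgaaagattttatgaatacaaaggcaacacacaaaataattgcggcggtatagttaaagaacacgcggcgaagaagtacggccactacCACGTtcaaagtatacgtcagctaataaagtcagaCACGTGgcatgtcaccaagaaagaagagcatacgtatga
PER1: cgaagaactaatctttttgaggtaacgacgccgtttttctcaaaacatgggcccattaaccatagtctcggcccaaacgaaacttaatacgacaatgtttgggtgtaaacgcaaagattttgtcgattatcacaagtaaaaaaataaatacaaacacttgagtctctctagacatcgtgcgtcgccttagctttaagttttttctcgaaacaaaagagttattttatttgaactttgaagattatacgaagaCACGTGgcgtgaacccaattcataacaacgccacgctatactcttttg
GolS2: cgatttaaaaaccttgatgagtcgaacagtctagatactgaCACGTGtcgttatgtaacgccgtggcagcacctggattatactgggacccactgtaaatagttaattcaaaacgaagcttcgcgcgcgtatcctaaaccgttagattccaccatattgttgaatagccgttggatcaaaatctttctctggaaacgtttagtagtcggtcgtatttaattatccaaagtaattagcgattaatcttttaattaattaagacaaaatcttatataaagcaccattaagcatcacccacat
EXPA8: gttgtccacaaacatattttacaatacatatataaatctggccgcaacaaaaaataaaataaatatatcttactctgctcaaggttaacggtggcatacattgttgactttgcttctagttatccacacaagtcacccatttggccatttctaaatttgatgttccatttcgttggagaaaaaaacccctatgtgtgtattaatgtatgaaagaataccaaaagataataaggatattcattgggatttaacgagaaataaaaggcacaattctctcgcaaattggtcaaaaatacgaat
XTH19: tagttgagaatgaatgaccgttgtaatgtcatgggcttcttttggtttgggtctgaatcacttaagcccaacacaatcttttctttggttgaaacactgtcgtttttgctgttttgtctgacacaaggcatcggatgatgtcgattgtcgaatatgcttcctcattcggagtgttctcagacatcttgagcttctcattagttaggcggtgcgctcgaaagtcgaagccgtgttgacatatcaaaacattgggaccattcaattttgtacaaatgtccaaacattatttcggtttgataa

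GEA6 held 3 ACGTG matches counted over both strands, and PER1 and GolS2 2 each within a single palindromic G-box, whereas EXPA8 and XTH19 held 0 of either.

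The loci around DOG1, where the insertion sits, were read as well. Of the 10 annotated loci on each side 7 were tested, 0 rose, and 1, RABA1c, was called lower (9.29 ± 1.19 CPM in dog1-3, 14.3 ± 1.85 CPM in WT, SD, n = 4 each; log2FC -0.63, adjusted p = 0.027, edgeR). The RABA1c call was lost in DESeq2 (adjusted p = 0.087) and without WT library 2 or dog1-3 library 1 or 4. Within 100 loci on each side 5 of 72 tested rose and 5 fell (13.9%), and within 500 loci 28 of 352 rose and 30 fell (16.5%), beside 15.7% of all tested genes.

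The same genotypes in mock seeds gave a second reading. The 2 contrasts have no library in common, but scaling, filter and the estimate of spread came from 1 fit of all 16 libraries. There 2334 genes were DEGs (18.4%), 1262 higher (9.94%) and 1072 lower (8.44%). Of the 1993 DEGs in NaCl, 1951 had the same sign in mock (97.9%). Of the genes that rose in NaCl 793 also rose in mock, 76.5% of the NaCl set and 62.8% of the mock set, with a median log2FC of 0.86 in NaCl and 0.91 in mock. Of those that fell 614 also fell in mock, 64.2% of the NaCl set and 57.3% of the mock set, with medians of -0.91 in NaCl and -0.70 in mock. The DEGs were chosen on the NaCl values, which enlarges these beside the mock ones. Across the 12697 tested genes, which are not independent replicates, the log2FC in NaCl and in mock had a Pearson r of 0.82. Medians of named groups were read in both media, with LEA medians of 1.15 in NaCl and 1.19 in mock, expansin medians of -1.64 and -1.72, and snoRNA medians of -0.67 and -0.69. Others lay further apart, with gibberellin synthesis at -0.57 in NaCl and -0.12 in mock, the EXORDIUM genes at 0.01 and -0.87, and oligopeptide transporters at -1.56 and -1.02. In the pre-replicative complex 0 genes were called in NaCl and 5 fell in mock. The differences between these medians were not tested. Of the 35 snoRNA genes that fell in NaCl 30 also fell in mock.

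**Figure D5:**
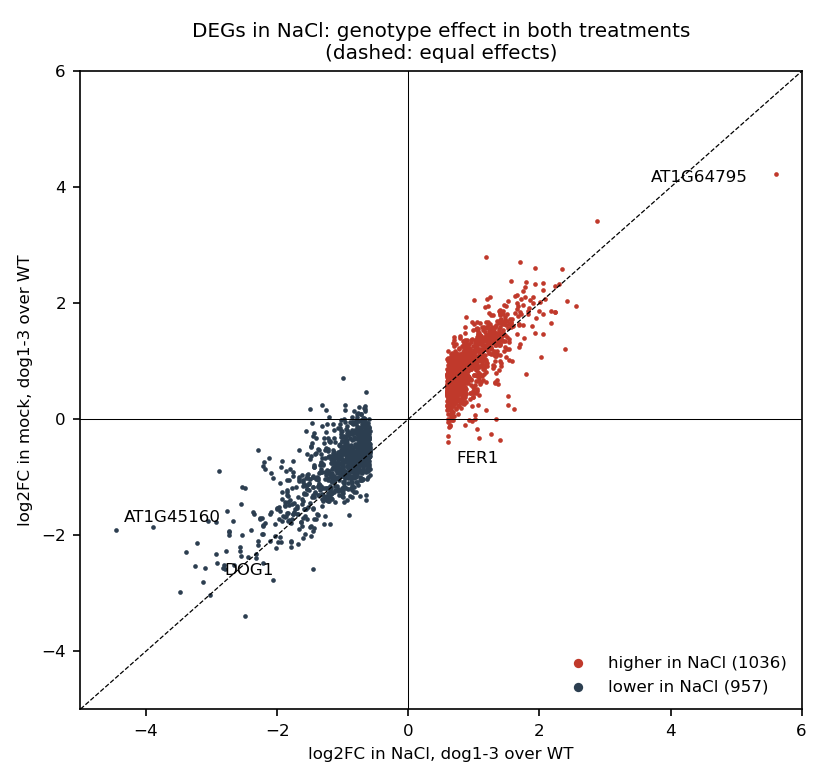
Log2FC of dog1-3 over WT in NaCl (x axis) and in mock (y axis) for the 1036 genes that rose and the 957 that fell in NaCl, with equal effects on the dashed line. Both effects have the same sign for 1951 of 1993 genes, and AT1G45160 and AT1G64795 lie farther out in NaCl than in mock.

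Whether the genotype effect differed in size between NaCl and mock was tested with the interaction term. It passed for 1 gene of 12697 (0.00788%) at an FDR under 0.05, while 826 genes had an unadjusted p under 0.05. That gene was AT1G45160, whose level was 1.06 ± 0.98 CPM in dog1-3 and 27.4 ± 1.36 CPM in WT in NaCl (SD, n = 4 each), with a log2FC of -4.46 in NaCl and -1.91 in mock (difference -2.55, interaction adjusted p = 0.0409, edgeR). DESeq2 also counted 1 gene, and whether it was AT1G45160 is not given here. The count was 0 with a replicate block and 0 to 3 when 1 NaCl library was left out. Next came FER1, at 42.8 ± 4.15 CPM in dog1-3 NaCl and 27.9 ± 4.61 CPM in WT NaCl, with a log2FC of 0.61 in NaCl and -0.39 in mock, and AT1G64795, with 5.61 and 4.23. Both had an interaction adjusted p of 0.0889. For the other genes a difference between NaCl and mock in the size of the genotype effect was not detectable at this depth.

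Of the 1993 DEGs, 514 (25.8%) overlap an annotated gene on the opposite strand, beside 29.3% of all tested genes, and reads of such partners cannot be told apart without knowledge of the strand setting. Among the genes named above such an overlap holds for AT1G64795, ILA, CYP709B2, AP4.3A, EXLA1, SEP2, RTFL10, OLEO1, OLEO2, RAB18, LEA7, HSFA9 and HSP101. It also holds for FER1, GolS1, PYL7, EEL, ABF4, E12A11, TUA2, NHX3, SIS, P5CS1, BETA-TIP, TIP3;1, ERS1 and UBC21.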

How the data were processed

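Per the labels and the study's methods, RNA of whole imbibed seeds was reverse transcribed with barcoded oligo(dT), pooled by treatment and sequenced from the 3′ ends, and the submitters' processing notes name STAR 2.7.8a, DESeq2 and the TAIR10 genome. The deposited files hold whole-number counts per locus made by the authors, 1 file per library. The counting program, its strand setting and any use of molecular identifiers are not given in the sources used here, so intervals cover counting error only.

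All 16 libraries in 4 groups were fitted together with edgeR 4.0.16 (limma 3.58.1, R 4.3.3) by quasi-likelihood after TMM scaling, on the 12697 loci kept by filterByExpr with a minimum count of 10. DEGs had a Benjamini-Hochberg FDR under 0.05 and a change over 1.5-fold. Log2FC is dog1-3 over WT. P-values of edgeR rest on the spread between biological replicates, 4 a group, estimated over all 4 groups with information shared between genes. They do not measure the spread of the NaCl libraries alone, which only the exact permutation test uses. Replicates of a group differed by more than sampling noise, and same-numbered libraries did not deviate together (r from -0.020 to 0.045), so they were not paired.

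Named genes were DOG1, the 10 largest increases and decreases with separated groups (mean count of the higher group 10 or more), the 5 most abundant DEGs each way, up to 4 called members of each list with the largest change (or its most abundant member), the 3 smallest interaction p-values, the 10 loci on each side of DOG1, and the salt and germination genes whose 3'RNA-seq levels the study displayed, with UBC21. The comparison, its members and the 38 lists (409 genes) were chosen with earlier results of these data known. Annotation classes and ILA were chosen after values were seen. Names and sequences came from RefSeq TAIR10.1, which matched 37051 loci, the other 285 being organellar loci. Alternatives were DESeq2 1.42.0, other scalings, filters and thresholds, a replicate block, the NaCl libraries alone and each NaCl library left out.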

Additional observations from a re-analysis of the deposited data

Results flagged for a closer look

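In 14 of 342 groups of 4 libraries 1 library lay far from the other 3 by Dixon's 95% criterion, and chance flags about 1 in 20 groups. Among the dog1-3 NaCl libraries, DOG1 was at 23.5 CPM in library 2, against 17.2 to 17.8 CPM in the others, all below the WT NaCl libraries. Library 4 held 732 CPM of the albumin SESA1 (others 949 to 975), 154 CPM of the ribonucleotide reductase RNR1 (others 120 to 125), 222 CPM of the 3 SnRK2 kinases (others 194 to 198) and 1554 CPM of snoRNA genes (others 1413 to 1427). Library 1 held 1368 CPM of the sodium transport list (others 1279 to 1294).

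Among the WT NaCl libraries, library 1 had 17205 CPM of CRU3 (others 12046 to 12928). Library 2 had 218 CPM of AT2G42560 (others 305 to 309), 92.3 CPM of HSP17.6A (others 142 to 145) and 14.6 CPM of the pollen markers (others 5.12 to 5.83). Library 3 had 21.1 CPM of PYL13 (others 15.1 to 16) and 1090 CPM of the ethylene list (others 1044 to 1052). Library 4 had 18.5 CPM of TUB5 (others 7.4 to 8.48) and 742 CPM of the oil synthesis list (others 625 to 645).

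The genotype effect on AT1G45160 differed between NaCl and mock by -2.55 on the log2 scale (interaction adjusted p = 0.0409, edgeR), a call that was lost in several alternatives.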

How the results depend on the processing

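Across the alternatives the number of DEGs stayed within 1.5 times of 1993, except with the FDR limit alone (3635, with 1904 higher and 1731 lower) and with edgeR's glmTreat against 1.5-fold (644). Scaling by library size alone gave 551 higher and 2252 lower, 19.7% higher. With 1 NaCl library left out the total was 1764 to 2102, with 973 to 1100 higher, 791 to 1018 lower and 51.1% to 55.2% higher. The replicate block gave 1997 DEGs, and same-numbered libraries share only a number. The number of genes whose genotype effect differed between NaCl and mock was 21 without a filter on low counts, 0 with the replicate block and 0 to 3 with a library left out, where the main value was 1. Of 105 called named genes 14 lost the call under at least 1 of 17 alternative fits and 0 reversed. The FDR limit alone and glmTreat were not among these 17, so calls lost under glmTreat are not counted. A fit whose filter removed a gene was not counted for that gene. Scaling by library size alone moved the median of all genes from -0.02 to -0.25, and uncalled genes near 0 changed sign with that shift, namely SNRK2.2 (-0.12), AT5G45790 (-0.16), APG7 (-0.046), AT4G11040 (-0.20) and ABI3 (-0.21). AT5G45790 also did so without WT library 3 or dog1-3 library 4, with a range of -0.086 to 0.257 over the libraries left out, and ABI3 with a minimum count of 30 (-0.004) and without WT library 2 or dog1-3 library 4, with a range of -0.055 to 0.048 over the libraries left out. The cause of the sign changes other than under library size alone was not tested. Genes of a few counts per library are limited by depth.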

Other observations

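Some annotation classes picked after their values were seen are given as a description, beside 8.16% of all tested genes higher and 7.54% lower. Of 5 tested oligopeptide transporter genes, which carry short peptides or metal chelates, 4 fell and 0 rose in edgeR and DESeq2 (0 higher at an unadjusted p under 0.05; median log2FC -1.56). Summed, they had 91.9, 66.4, 57.0 and 74.5 CPM in dog1-3 NaCl and 178, 208, 182 and 188 CPM in WT NaCl. Of 5 nitrate transporter genes 3 fell and 0 rose in both tools (0 higher at an unadjusted p under 0.05; median -0.61), and of 22 GDSL lipase genes 9 fell and 1 rose (median -0.54).

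Of 305 ribosomal protein genes 22 fell and 4 rose, with 241 below 0 and a median of -0.23, so that most shifts were under the 1.5-fold limit. Of 27 photosystem and chlorophyll-binding protein genes 5 rose and 0 fell in edgeR and DESeq2 (2 lower at an unadjusted p under 0.05), and they summed to 836 ± 18.0 CPM in dog1-3 NaCl and 663 ± 39.2 CPM in WT NaCl (SD, n = 4 each). Of 80 lncRNA genes 10 rose and 12 fell in edgeR, 5 and 11 in DESeq2.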
